A study of Mus musculus with 16 samples.

Results

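Mouse embryos depleted of Tead4 mRNA were compared at the 8-cell stage with control embryos. Zygotes had been injected with double-stranded RNA (dsRNA), which leads to destruction of the transcript it matches, and were grown in KSOM medium. The controls received dsRNA against GFP, a jellyfish protein the embryos do not have, so both groups had been injected and both carried dsRNA. The comparison rests on 8 of the 16 libraries of the study: 4 with Tead4 dsRNA and 4 with GFP dsRNA, named A1, A2, B1 and B2. Each library was a pool of 10 embryos, or about 80 cells, freed of the zona pellucida and amplified from polyadenylated RNA by Smart-seq2. A and B are crosses with different mothers by their labels, C57BL/6J×CBA/J in A and C57BL/6J×DBA/2J in B. The father is labelled C57BL/6J×DBA, with a DBA strain number that differs from library to library. That number was not used, so whether the fathers were alike is not known. The other 8 libraries, 4 with Tfap2c dsRNA and 4 with dsRNA against both Tfap2c and Tead4, came from the same crosses and stage. They gave a second set of embryos in which to look at the Tead4 dsRNA. The labels do not say whether the pools of a group came from separate injections, so p-values measure the spread between libraries.

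TEAD proteins bind DNA but need a partner to act on transcription. YAP (gene Yap1) and TAZ (gene Wwtr1) are co-activators that join TEAD in the nucleus, and VGLL4 competes with them for the same surface. In the Hippo pathway the kinases LATS1 and LATS2, helped by angiomotins, keep YAP and TAZ in the cytoplasm of inner cells. In outer cells of the mouse embryo an apical domain restrains the pathway, YAP enters the nucleus, and TEAD4 takes part in turning on trophectoderm genes such as Cdx2 and Gata3.

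Values are FPKM, fragments scaled to transcript length and to the mapped fragments of the library, and means are given ± SD over 4 libraries. Genes that reached 1 FPKM in 4 or more of the 16 libraries, 11422 in all, were tested on log2(FPKM + 1) with limma, and a gene was called at an adjusted p under 0.05. Log2 changes are on that scale, which understates the change of low genes. The 8 libraries were alike in overall measures: 10177 ± 219 genes reached 1 FPKM with GFP dsRNA and 10372 ± 82.5 with Tead4 dsRNA (exact two-sided permutation p = 0.143), and mitochondrially encoded genes took 9.94% ± 1.45 and 9.03% ± 1.78 of the FPKM (exact permutation p = 0.429). Relative depth, estimated from the steps of low FPKM values, lay between 0.897 and 1.1 of the mean of the 16 libraries. Transcripts that mark early embryos were present: Dppa3 stood at 8269 ± 409 FPKM in the controls, Pou5f1 at 37.2 ± 4.8 and Nanog at 26.9 ± 1.21.

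Tead4 (ENSMUSG00000030353, chromosome 6 at 128227143 to 128300813 of mm10) stood at 58.4, 46.5, 47.7 and 41.8 FPKM in the GFP libraries, listed here and below in the order A1, A2, B1, B2. After Tead4 dsRNA it stood at 8.05, 5.57, 5.99 and 11 FPKM in the same order. No treated library came near a control library, and the treated mean was 15.7% of the control mean (exact two-sided permutation p = 0.0286, the smallest that 4 against 4 libraries can give). Library B2 kept the most Tead4 mRNA. Tfap2c, the target of the other dsRNA, was 35.7 ± 6.6 FPKM in controls and 34.8 ± 1.67 FPKM after Tead4 dsRNA (log2 change -0.02, SE 0.11).

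Tead4 dsRNA was followed by a change in 700 genes, 6.13% of those tested: 383 were higher (3.35%) and 317 lower (2.78%). Large falls outnumbered large rises, with 114 called genes lower (0.998% of those tested) and 58 higher (0.508%) by more than 2-fold. The 2 groups did not overlap for 495 of the called genes, 240 lower and 255 higher, while 9.67% of all genes tested had groups that did not overlap (3.60% lower, 6.07% higher). An unadjusted p under 0.05 was reached by 2415 genes. The median log2 change of all genes tested was 0.05. Rescaling each library by its median ratio to the others moved that median to 0.00 and left 676 called genes, of which 38.8% were higher in place of 54.7%, so the balance of rises and falls depended on the scaling. Without GFP B2 the call count was 407, without Tead4 B1 it was 446, and without a term for cross it was 279.

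**Figure D1:**
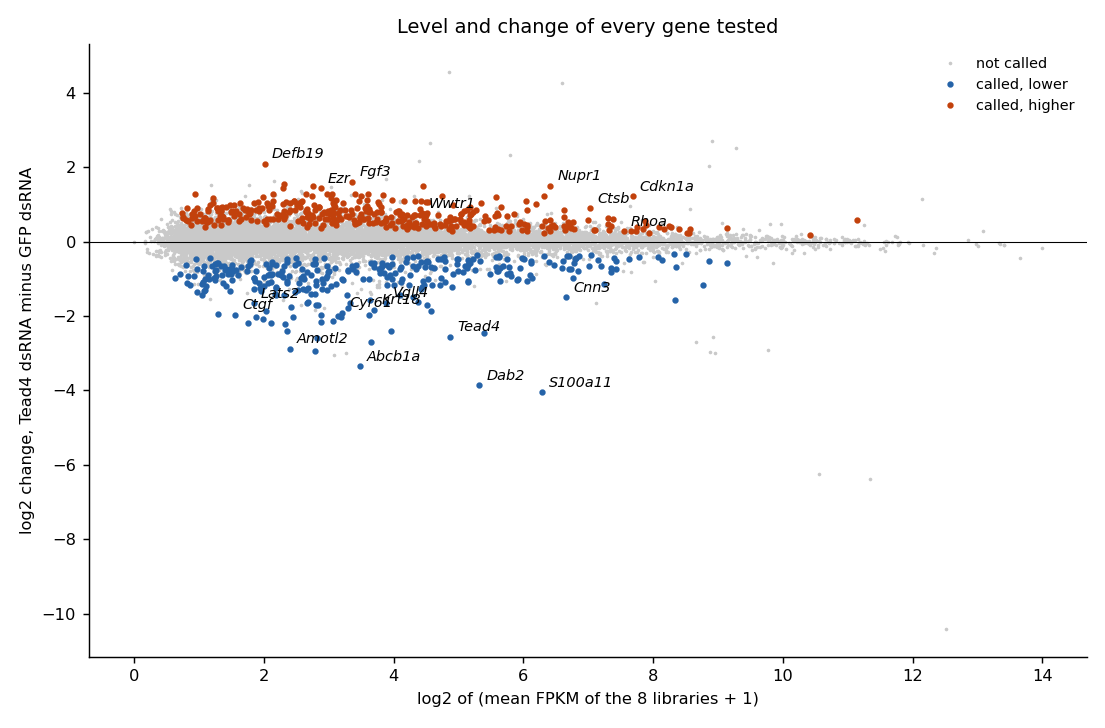
Log2 change after Tead4 dsRNA (vertical axis) against log2 of the mean FPKM of the 8 libraries plus 1 (horizontal axis) for the 11422 genes tested; grey points were not called, blue points were called lower and orange points called higher. The 317 lower genes reach further from 0 than the 383 higher genes, with S100a11 and Dab2 at the bottom of the called genes.

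The TEAD family itself was measured for 3 of its 4 members. Tead1 stood at 2.95 ± 1.05 FPKM in controls and 2.12 ± 0.357 after Tead4 dsRNA (adjusted p = 0.38), and Tead3 stayed at or under 0.178 FPKM in all 8 libraries. Tead2 was low in controls, at 1.44, 1.51, 1.03 and 0.283 FPKM across the 4 libraries, and stood at 3.87, 2.54, 2.44 and 1.59 FPKM after Tead4 dsRNA. All treated libraries exceeded all controls, and Tead2 rose by a log2 value of 0.82 (SE 0.20, adjusted p = 0.0225). Its call was lost without GFP B2, Tead4 A1 or Tead4 B1 (adjusted p 0.0676 to 0.0803) and without a term for cross (0.0960). No filter on low values also ended it. In the controls the summed level of Tead1 and Tead2 was far below that of Tead4 on the FPKM scale, which is per length. After Tead4 dsRNA that gap was smaller. The TEAD genes together summed to 44 to 64.3 FPKM in the control libraries and to 9.78 to 15 FPKM in the treated ones.

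Among the partners of TEAD, TAZ and VGLL4 transcripts moved in opposite directions. Wwtr1, which encodes TAZ, stood at 12.2, 13, 16.8 and 17.8 FPKM in the GFP libraries and at 20, 26.3, 31.7 and 27 FPKM after Tead4 dsRNA. The groups did not overlap, and Wwtr1 rose 1.76-fold (log2 change 0.77, SE 0.10, adjusted p = 0.000416). Vgll4 (chromosome 6 at 114860621 to 114970007), the inhibitory partner, stood at 13.9, 14.2, 28.5 and 28.3 FPKM in controls and at 2.52, 5.25, 7.37 and 10.1 FPKM after Tead4 dsRNA. Its level was about the same in the 2 control libraries of a cross and differed between crosses, yet every treated library was below every control. Vgll4 fell to 29.8% of the control mean (log2 change -1.64, SE 0.19, adjusted p = 0.000111), and without a term for cross its adjusted p was 0.1. Yap1 stood at 4.59 ± 0.444 FPKM in controls and 4.94 ± 0.973 after Tead4 dsRNA (log2 change 0.08, SE 0.18, adjusted p = 0.867). Vgll1, Vgll2 and Vgll3 were at or under 0.325 FPKM in all 8 libraries.

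Of 25 genes listed as Hippo kinases and regulators, 17 were tested, 3 fell and none rose, against 2.78% of all tested genes falling. The other 14 were not called, and the median log2 change of the 17 was 0.01, beside 0.05 for all genes. Amotl2, an angiomotin that holds YAP at junctions and the cytoskeleton, had the lowest adjusted p of all named genes. It stood at 7.01, 5.98, 10.1 and 9.95 FPKM in the GFP libraries, and at 0.0351, 0.0994, 0.556 and 0.327 FPKM after Tead4 dsRNA. The treated mean was 3.08% of the control mean (log2 change -2.88, SE 0.15, adjusted p = 5.48e-08). Its relative Amot, at 2.22 ± 1.03 FPKM in controls and 1.41 ± 0.675 after Tead4 dsRNA, did not pass (adjusted p = 0.181). Lats2, a kinase that phosphorylates YAP, stood at 4.03, 4.25, 4.74 and 4.59 FPKM in controls and at 0.213, 0.944, 0.594 and 1.31 FPKM after Tead4 dsRNA. Lats2 fell to 17.4% of control with no overlap (log2 change -1.65, SE 0.19, adjusted p = 0.000115). Wwc2, a relative of KIBRA that activates LATS kinases, fell from 5.14 ± 0.475 to 2.62 ± 0.659 FPKM (log2 change -0.78, SE 0.12, adjusted p = 0.00141). All 3 falls held in every one of the 17 alternative settings that fitted the gene.

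Of 23 genes known as targets of YAP and TEAD in other cells, 9 were expressed enough to be tested. Amotl2 and Lats2, described above, also belong here, and with Ctgf and Cyr61 they made 4 that fell, and none rose. The counts of this list and of every list below stand beside 2.78% lower and 3.35% higher among all genes tested. The median log2 change of the 9 was -0.09. Ctgf, a secreted matricellular protein, stood at 1.39, 3.49, 5.12 and 4.82 FPKM in the GFP libraries. It was nearly gone after Tead4 dsRNA, at 0.0383, 0.0637, 0.0292 and 0.464 FPKM, or 4.01% of the control mean (log2 change -1.96, SE 0.27, adjusted p = 0.000523). Cyr61, a relative of Ctgf (chromosome 3 at 145646971 to 145649985), stood at 11.6, 14.6, 15.1 and 12.6 FPKM in controls and at 2.57, 2.23, 2.18 and 4.94 FPKM after Tead4 dsRNA. It fell to 22.1% of control (log2 change -1.91, SE 0.29, adjusted p = 0.00139). In both genes library B2 had the highest treated value, as it had for Tead4 mRNA. Other listed targets stood apart from these: Ajuba was 3 ± 0.264 FPKM in controls and 2.76 ± 0.468 after Tead4 dsRNA (log2 change -0.09, SE 0.12, adjusted p = 0.747), and Gadd45b was 1.01 ± 0.24 and 1.54 ± 0.231 FPKM (log2 change 0.34, SE 0.17, adjusted p = 0.287). Ankrd1 and Axl, targets in many cell lines, stayed at or under 0.0415 and 0.172 FPKM in all 8 libraries.

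**Figure D2:**
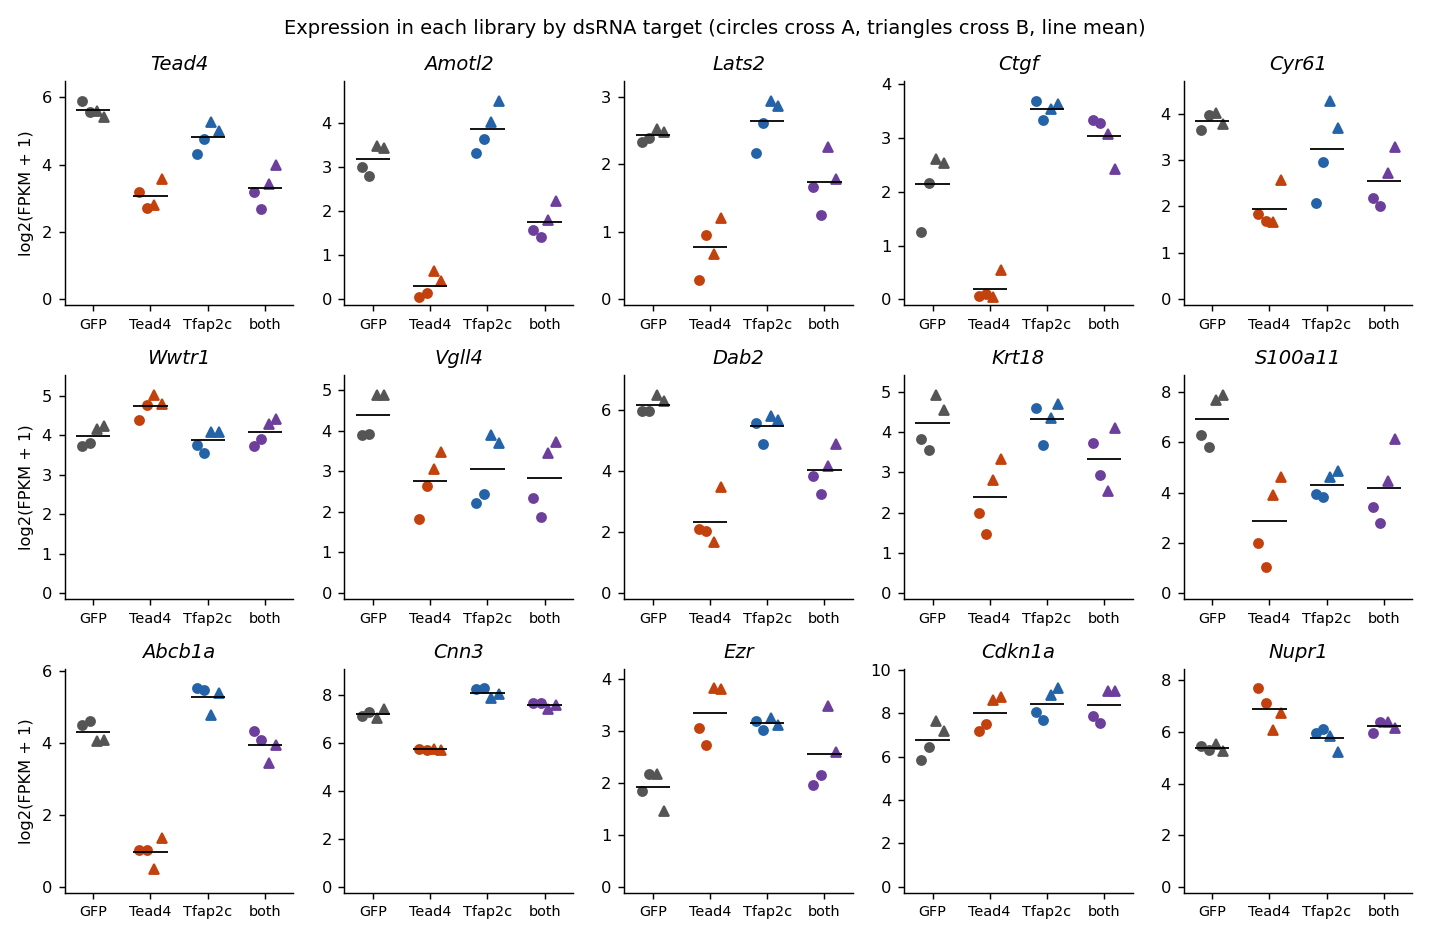
Expression of 15 genes, as log2(FPKM + 1) on the vertical axis, in each of the 16 libraries, grouped along the horizontal axis by the dsRNA injected; circles are cross A, triangles cross B, and lines are group means. With Tead4 dsRNA alone Amotl2 and Ctgf approach 0, Abcb1a, Dab2 and S100a11 fall well below the controls, and Wwtr1, Ezr, Cdkn1a and Nupr1 lie higher.

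TEAD proteins recognise a core motif, GGAATG, which reads CATTCC on the other strand. Both readings were looked for in the 250 bases before each RefSeq transcription start on GRCm38.p6, which is the mm10 assembly. A start was found for 8007 of the 11422 genes tested, 533 of them called, and some genes have several starts. The motif lay in 12.6% of all 32851 upstream windows in the table and in 10.5% of the 10081 windows of tested genes. It lay in 44 of 322 windows of genes that fell (13.7%) and in 33 of 364 windows of genes that rose (9.07%). A match is only a string of letters and not evidence of binding. The windows of 4 genes are shown 5′ to 3′ on the strand of the gene, with the motif in capitals: 3 genes that fell and, for contrast, Ajuba, which holds the motif and was not called.
Cyr61, chr3:145649986-145650235, minus strand: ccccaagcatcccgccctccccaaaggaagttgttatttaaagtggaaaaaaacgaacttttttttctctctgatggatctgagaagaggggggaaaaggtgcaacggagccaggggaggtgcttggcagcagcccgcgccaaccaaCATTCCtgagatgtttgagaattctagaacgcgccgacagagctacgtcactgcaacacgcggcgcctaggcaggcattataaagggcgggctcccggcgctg
Wwc2, chr8:47990545-47990794, minus strand: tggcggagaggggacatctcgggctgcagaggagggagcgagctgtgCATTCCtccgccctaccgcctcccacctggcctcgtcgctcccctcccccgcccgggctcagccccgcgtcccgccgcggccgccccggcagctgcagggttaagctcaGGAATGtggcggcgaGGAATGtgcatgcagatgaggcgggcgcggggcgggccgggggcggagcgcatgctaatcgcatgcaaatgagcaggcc
Abcb1a, chr5:8566841-8567090, plus strand: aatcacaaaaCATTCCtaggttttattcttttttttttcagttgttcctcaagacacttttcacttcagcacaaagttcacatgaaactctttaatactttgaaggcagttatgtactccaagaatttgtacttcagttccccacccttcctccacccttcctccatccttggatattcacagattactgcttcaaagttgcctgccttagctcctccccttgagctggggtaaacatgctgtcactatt
Ajuba, chr14:54577662-54577911, minus strand: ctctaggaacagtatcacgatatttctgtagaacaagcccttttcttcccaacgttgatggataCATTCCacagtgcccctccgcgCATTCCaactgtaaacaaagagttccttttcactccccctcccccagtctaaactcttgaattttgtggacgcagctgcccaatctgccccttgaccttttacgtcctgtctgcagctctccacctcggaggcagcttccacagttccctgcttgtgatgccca

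The motif began 103 bases before the start of Cyr61, 240 before that of Abcb1a, 203, 94 and 79 before that of Wwc2, and 186 and 164 before that of Ajuba. Wwc2 therefore had 3 matches and fell by about 2-fold, while Ajuba had 2 and did not pass. In Amotl2 and Vgll4 the match lies before a start that is within the gene, so only the 30 bases around it are shown.
Amotl2, chr9:102717727-102717756, plus strand, 65 bases before a start: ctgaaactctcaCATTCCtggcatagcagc
Vgll4, chr6:114969268-114969297, minus strand, 82 bases before a start: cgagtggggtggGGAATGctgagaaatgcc

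Trophectoderm genes did not move as a block. Of 30 listed, 17 were tested, 4 fell, 2 rose, and the median log2 change was -0.15, beside 0.05 for all genes. Cdx2, the defining factor of the lineage, was at or under 0.341 FPKM in all 8 libraries at this stage, and Eomes at or under 0.616. Gata3, the other early factor, stood at 3.13, 2.28, 7.18 and 7.02 FPKM in the GFP libraries and at 1.05, 1.08, 1.44 and 3.23 FPKM after Tead4 dsRNA. Each treated library was lower than the control of the same cross, although B2 overlapped the controls of cross A. Gata3 fell by a log2 value of -1.08 (SE 0.30, adjusted p = 0.0463), a narrow call. It was lost with replicates as a block (adjusted p = 0.0618) and without a term for cross (0.151). A pseudocount of 0.1 and no filter on low values also ended the call. So did leaving out any 1 of 6 libraries, all but GFP A2 and Tead4 B2 (adjusted p 0.0811 to 0.131). Krt18, a simple-epithelium keratin, stood at 13.3, 10.8, 29.5 and 22.3 FPKM in controls and at 2.94, 1.78, 6.01 and 9.02 FPKM after Tead4 dsRNA. It fell to 26% of control (log2 change -1.82, SE 0.35, adjusted p = 0.0062). Krt8, which pairs with it in filaments, was 14.7 ± 10.6 and 16.1 ± 9.54 FPKM (log2 change 0.18, SE 0.32, adjusted p = 0.828), and the difference between the changes of these 2 keratins was not tested.

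Hand1, a transcription factor of trophoblast giant cells, went the other way. It stood at 31.3, 24.3, 48.4 and 36.2 FPKM in controls and at 56.9, 41.6, 80 and 61.2 FPKM after Tead4 dsRNA. Each treated library was above both controls of its cross (log2 change 0.76, SE 0.16, adjusted p = 0.00902, and 0.252 without a term for cross). Aqp9, a channel for water and glycerol, was 121 ± 19.7 FPKM in controls and 150 ± 29.2 after Tead4 dsRNA. Its call had a log2 change of 0.31 (SE 0.08, adjusted p = 0.0363). It was lost without GFP A1, A2 or B2 and without Tead4 A1, A2 or B1 (adjusted p 0.0538 to 0.107). Both rescalings (adjusted p 0.0958 and 0.105) and no term for cross (0.452) ended it too. So did no filter on low values and no variance trend. As these are pools of whole embryos, fewer cells of a kind and less RNA per cell cannot be told apart.

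Dab2 and Lrp2, which act in receptor uptake and mark both trophectoderm and primitive endoderm, were lower. Dab2 is already among the 4 trophectoderm genes counted above as falling. Dab2, an adaptor that brings receptors into clathrin-coated pits, stood at 61.8, 61.5, 90.3 and 77.9 FPKM in the GFP libraries and at 3.34, 3.06, 2.2 and 10.2 FPKM after Tead4 dsRNA. Its mean fell from 72.9 ± 13.9 to 4.7 ± 3.7 FPKM, to 6.45% of control (log2 change -3.86, SE 0.30, adjusted p = 4.36e-06). Lrp2, the megalin receptor for which Dab2 is an adaptor, stood at 1.15, 1.41, 2.8 and 2.65 FPKM in controls and at 0.209, 0.0631, 0.226 and 0.744 FPKM after Tead4 dsRNA (log2 change -1.18, SE 0.23, adjusted p = 0.00564). Ap2a2, a subunit of the AP-2 clathrin adaptor complex, fell from 17.6 ± 3.33 to 5.29 ± 1.57 FPKM (log2 change -1.58, SE 0.16, adjusted p = 4.41e-05). Dab2, Lrp2 and Ap2a2 were the 3 that fell among 30 endocytosis genes tested, none rose, and the median of the 30 was 0.02. The laminin chain gene Lamc1 fell from 2.15 ± 0.587 to 0.665 ± 0.3 FPKM (log2 change -0.92, SE 0.19, adjusted p = 0.0104). It was with Dab2 and Lrp2 among the 3 that fell of 8 primitive endoderm genes tested, whose median was -0.14. The other 5 were not called in either direction. Of other genes of this lineage, log2 changes over the alternative settings were 0.36 to 0.78 for Gata4. They were 0.05 to 0.51 for Sparc and -0.21 to -0.08 for Gata6.

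Most pluripotency genes did not pass: of 28 tested, 2 fell, 1 rose and 25 were not called, with a median of 0.03. Pou5f1 stood at 37.2 ± 4.8 FPKM in controls and 38.2 ± 7.81 after Tead4 dsRNA (log2 change 0.03, SE 0.26, adjusted p = 0.975). Nanog stood at 26.9 ± 1.21 and 35.4 ± 12.8 FPKM (log2 change 0.31, SE 0.34, adjusted p = 0.684), with a wide range of 19.1 to 50.5 in the treated libraries. Sox2 stayed at or under 0.388 FPKM. Lin28a, which binds let-7 precursors, stood at 5.14, 5.19, 4.25 and 3.78 FPKM in controls and at 2.98, 2.29, 1.81 and 1.38 FPKM after Tead4 dsRNA, without overlap (log2 change -0.86, SE 0.12, adjusted p = 0.000582). Prdm14, a repressor of lineage genes, was low but rose in all libraries, from 1 ± 0.134 to 3.18 ± 0.982 FPKM (log2 change 1.04, SE 0.22, adjusted p = 0.0121). Gdf3, a growth factor related to Nodal, stood at 7.23, 5.89, 15.5 and 22.7 FPKM in controls and at 0.934, 0.474, 3.12 and 6.57 FPKM after Tead4 dsRNA (log2 change -1.99, SE 0.48, adjusted p = 0.0224). It differed between crosses about as much as between groups. Its call was lost without GFP A1 or B2 or without Tead4 A1, A2 or B1 (adjusted p 0.0514 to 0.0768). No term for cross (0.108), a pseudocount of 0.1 and no filter on low values also ended it.

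**Figure D3:**
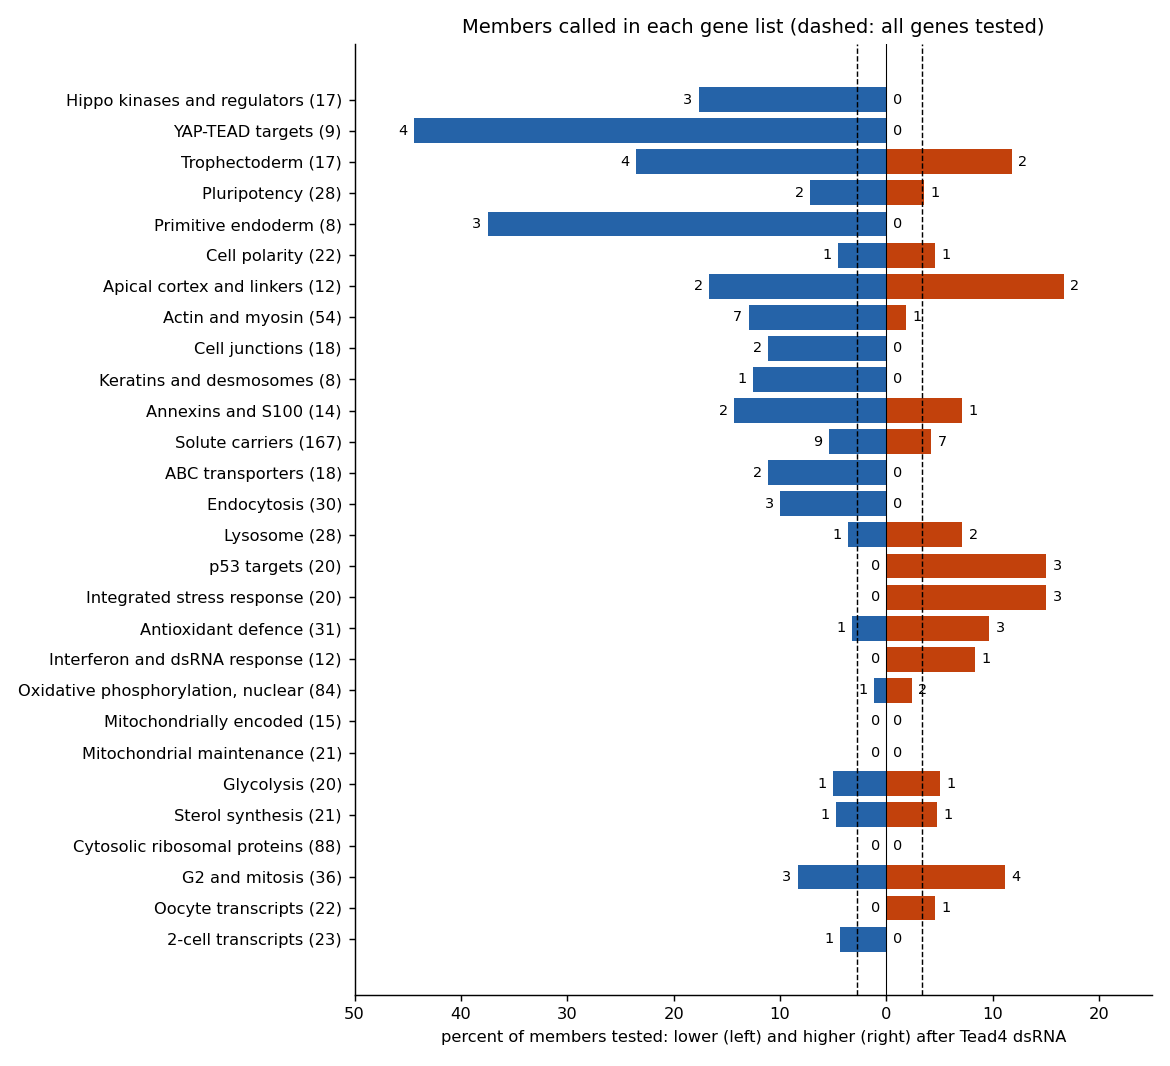
Percent of the tested members of each gene list with at least 8 members tested (number in brackets) that were called lower (bars to the left) or higher (bars to the right) after Tead4 dsRNA, with the number called at the bar's end; dashed lines mark the same over all genes tested, 2.78% lower and 3.35% higher. Lists of YAP-TEAD targets, primitive endoderm, trophectoderm and Hippo genes reach furthest to the left among the lists drawn, and ribosomal and mitochondrially encoded genes have no bar. Lists share some genes, such as Dab2, Amotl2 and Lats2, so their bars are not independent.

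Polarity and the apical cortex, through which the embryo places its outer and inner cells, showed changes in single genes. Of 22 polarity genes tested 1 fell and 1 rose, and of 12 genes of the apical cortex 2 fell and 2 rose. Pard6b, a core member of the apical PAR complex, stood at 4.3 ± 1.09 FPKM in controls and 4.05 ± 2.26 after Tead4 dsRNA (log2 change -0.17, SE 0.20, adjusted p = 0.707). Ezr encodes ezrin, which ties actin to the apical membrane. It stood at 2.61, 3.52, 3.54 and 1.77 FPKM in the GFP libraries and rose to 7.34, 5.64, 13.2 and 13.1 FPKM after Tead4 dsRNA (log2 change 1.44, SE 0.26, adjusted p = 0.00447). Epb4.1l5, a FERM-domain protein of the basolateral side, moved the other way, from 16.6, 14.8, 17.5 and 24.6 FPKM to 2.43, 3.39, 4.03 and 6.65 FPKM (log2 change -1.96, SE 0.28, adjusted p = 0.000675). Myo1c, a motor that links membranes to actin, fell from 5.39 ± 0.422 to 1.76 ± 0.0851 FPKM, with little spread in either group (log2 change -1.21, SE 0.14, adjusted p = 0.000122).

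Other calls in these lists were narrow. Rhoa, the GTPase that sets actomyosin contraction, was 167 ± 18.6 FPKM in controls and 205 ± 24.6 after Tead4 dsRNA (a log2 change of 0.29, adjusted p = 0.0369, and 0.0502 with replicates as a block). Its call was lost without any 1 of 6 libraries, all but GFP B1 and Tead4 A2 (adjusted p 0.0683 to 0.113), and with the median-ratio rescaling (0.0838) and no term for cross (0.135). Dlg3, a scaffold at the lateral membrane, was 9.57 ± 1.65 and 5.53 ± 1.18 FPKM (adjusted p = 0.037), and lost its call without any 1 of 6 libraries, all but GFP A2 and Tead4 A2 (adjusted p 0.0515 to 0.114) and without a term for cross (0.0706). Plek2, a lipid-binding actin regulator, was 11.2 ± 4.47 and 20.2 ± 4.51 FPKM (adjusted p = 0.0384). It lost its call with both rescalings (adjusted p 0.0612 and 0.0564) and without a term for cross (0.119). Leaving out any 1 of 6 libraries, all but GFP A1 and Tead4 B2, ended it too (adjusted p 0.0641 to 0.121). The calls of Rhoa, Dlg3 and Plek2 were also lost with no filter on low values, and that of Rhoa without the variance trend.

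Of 54 genes of the actin cytoskeleton tested, 7 fell and 1 rose, with a median of 0.00. Cnn3, a calponin that binds actin filaments, was abundant and moved with almost no spread. It stood at 139, 157, 129 and 171 FPKM in the GFP libraries and at 53, 51.1, 52.4 and 51.2 FPKM after Tead4 dsRNA, 34.9% of control (log2 change -1.49, SE 0.09, adjusted p = 4.35e-07). Its relative Cnn2 fell from 4.6 ± 1.13 to 1.44 ± 0.249 FPKM (log2 change -1.18, SE 0.15, adjusted p = 0.000271). Actn4, an actinin that crosslinks filaments, fell from 35.1 ± 3.52 to 15.2 ± 2.74 FPKM (log2 change -1.16, SE 0.17, adjusted p = 0.000858). Tpm4, a tropomyosin, fell from 65.3 ± 8.55 to 32.6 ± 13.7 FPKM (adjusted p = 0.00146; 0.0652 without a term for cross), and Anln, the anillin of the cleavage furrow, from 33.1 ± 7.45 to 20 ± 6.97 FPKM (adjusted p = 0.00429; 0.188 without it). Diap2 and Ect2 were the other 2 that fell. Capg, which caps filament ends, rose from 5.02, 4.71, 22.9 and 17.5 FPKM to 9.54, 13, 46.2 and 43.9 FPKM. Each treated library was more than 1.5-fold above both controls of its cross, but levels were much higher in cross B of both groups. The log2 change was 1.09 (SE 0.19, adjusted p = 0.00311, and 0.486 without a term for cross).

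At junctions 2 of 18 genes tested fell and none rose, with a median of -0.25. Marveld2, the tricellulin of tight junctions, fell from 3.25, 5.55, 5.18 and 4.25 FPKM to 1.25, 1.05, 1.45 and 1.01 FPKM (log2 change -1.33, SE 0.15, adjusted p = 0.000111). Ctnna1, the alpha-catenin that joins cadherins to actin, fell from 31.7 ± 3.08 to 21.9 ± 4.05 FPKM (a log2 change of -0.52, adjusted p = 0.00992; 0.0596 without a term for cross). The claudin Cldn4 was 7.57, 6.19, 6.81 and 7.92 FPKM in controls and 2.32, 2.94, 4.85 and 4.43 after Tead4 dsRNA. Its groups did not overlap, but it missed the threshold (adjusted p = 0.0515) and passed with each rescaling (0.039 and 0.0434). Cldn6 stood at 18.4, 19.5, 13 and 8.29 FPKM in controls and at 19.8, 11.4, 2.18 and 2.56 FPKM after Tead4 dsRNA (adjusted p = 0.0663; 0.00979 without Tead4 A1), low in both treated libraries of cross B and overlapping the controls in cross A.

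S100a11 had the largest log2 fall of all called genes. It encodes a calcium-binding protein that partners annexins at membranes (chromosome 3 at 93520496 to 93526288). It stood at 77.6, 55.4, 205 and 237 FPKM in the GFP libraries, about 3-fold higher in cross B, and at 3, 1.02, 14.1 and 23.3 FPKM after Tead4 dsRNA. The lowest control lay above the highest treated library, and the mean fell to 7.2% of control (log2 change -4.04, SE 0.39, adjusted p = 2.84e-05). The order of the crosses was kept in the treated libraries. Anxa2, an annexin of the cortex, fell from 28.2 ± 10.7 to 9.2 ± 2.77 FPKM (log2 change -1.49, SE 0.23, adjusted p = 0.0014). Anxa7 was 43.5 ± 1.85 and 54.9 ± 1.81 FPKM (a log2 change of 0.33, adjusted p = 0.0282), without overlap. Its call was lost without GFP A1, A2 or B2 or Tead4 B1 or B2 (adjusted p 0.0656 to 0.0921) and with the median-ratio rescaling (0.0562) and no term for cross (0.0821). In all, 2 of 14 annexin and S100 genes tested fell and 1 rose, with a median of -0.03.

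Membrane pumps and carriers moved in both directions. Abcb1a, which encodes a P-glycoprotein that exports drugs and lipids (chromosome 5 at 8567091 to 8748575), stood at 21.7, 23.6, 15.8 and 15.9 FPKM in controls and at 1.04, 1.03, 0.422 and 1.56 FPKM after Tead4 dsRNA. It fell to 5.26% of control (log2 change -3.34, SE 0.18, adjusted p = 8.68e-08). Its neighbour and close paralog Abcb1b fell from 2.53 ± 0.64 to 0.947 ± 0.437 FPKM (log2 change -0.87, SE 0.13, adjusted p = 0.0013); how fragments that match both were counted is not given in the sources used here. These 2 were the only called genes among 18 ABC transporters tested. Of 167 solute carriers tested, 9 fell and 7 rose. That made 9.58% called, beside 6.13% of all genes tested, and the median log2 change was 0.04. Slc46a1, the proton-coupled folate transporter, stood at 75.8, 67.5, 67.2 and 77.3 FPKM in controls and at 37.2, 31.2, 37.6 and 45.7 FPKM after Tead4 dsRNA (log2 change -0.92, SE 0.11, adjusted p = 0.000122). Slc6a14, an amino acid carrier, fell from 6.22 ± 1.04 to 1.68 ± 0.565 FPKM (log2 change -1.44, SE 0.22, adjusted p = 0.00121), and Slc7a6, another, from 20.4 ± 1.44 to 12 ± 1.61 FPKM (adjusted p = 0.000557). Among the rises, Slc10a3 went from 13.1 ± 1.68 to 20.6 ± 2.41 FPKM (adjusted p = 0.00992) and the zinc importer Slc39a6 from 3.44 ± 1.22 to 10.2 ± 5.23 FPKM (adjusted p = 0.00554; 0.0578 without a term for cross).

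The lysosomal protease cathepsin B, gene Ctsb, was one of the steadiest rises. It stood at 85.1, 91.4, 94.8 and 88.6 FPKM in the GFP libraries and at 184, 156, 161 and 174 FPKM after Tead4 dsRNA, 1.87-fold higher (log2 change 0.90, SE 0.09, adjusted p = 3.61e-05). The membrane proteins of the lysosome split: Lamp1 fell from 46.4 ± 4.33 to 32 ± 2.55 FPKM (a log2 change of -0.52, adjusted p = 0.00307), while Lamp2 was 258 ± 29.1 FPKM in controls and 349 ± 60 after Tead4 dsRNA (a log2 change of 0.42, adjusted p = 0.0191). The Lamp2 call was lost without GFP A2 or B2 or without Tead4 A1 or B1 (adjusted p 0.0571 to 0.0668) and without a term for cross (0.203). The other 25 of 28 lysosomal genes tested were not called, and the median was 0.08.

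Of 20 p53 targets tested 3 rose and none fell, with a median of 0.26, beside 0.05 for all genes. Cdkn1a encodes p21, an inhibitor of cyclin-dependent kinases. It stood at 56.2, 87.8, 197 and 147 FPKM in the GFP libraries and at 143, 181, 397 and 426 FPKM after Tead4 dsRNA, 2.35-fold higher in the mean (log2 change 1.23, SE 0.14, adjusted p = 0.000145). Each treated library was above both controls of its cross, but crosses differed as much as groups did. Without a term for cross the adjusted p was 0.229. Sesn1, a sestrin, was 6.31 ± 0.987 and 9.06 ± 0.759 FPKM (a log2 change of 0.47, adjusted p = 0.0168), a call lost without GFP A1 or B2 (adjusted p 0.059 and 0.0503). Plk2, a polo-like kinase, was 8 ± 4.82 and 18.7 ± 8.6 FPKM (a log2 change of 1.27, adjusted p = 0.0235), a call lost without GFP A1 or B2 or Tead4 A1, A2 or B2 (adjusted p 0.0504 to 0.0631) and without a term for cross (0.276).

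In the integrated stress response, which slows translation, 3 of 20 genes tested rose and none fell. Nupr1, a small stress-induced chromatin protein, stood at 42.8, 38.5, 44.8 and 37.2 FPKM in controls and at 204, 138, 65.9 and 104 FPKM after Tead4 dsRNA. It rose 3.14-fold (log2 change 1.51, SE 0.23, adjusted p = 0.00139), with log2 changes of 2.02 in cross A and 1.01 in cross B. Ddit3, the factor CHOP, rose from 5.67 ± 2.65 to 10 ± 2.34 FPKM (a log2 change of 0.78, adjusted p = 0.00808; 0.144 without a term for cross). Cebpg, its relative, was 7.42 ± 1.42 and 11.6 ± 1.51 FPKM (adjusted p = 0.0298, and 0.0527 with replicates as a block). Its call was lost with both rescalings (0.06 and 0.0564) and without GFP B1 or B2 or Tead4 A1, A2 or B1 (0.0628 to 0.102) and without a term for cross (0.0583). The median of the list was 0.08.

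Antioxidant genes gave 3 rises and 1 fall among 31 tested, with a median of 0.19. Hmox1, haem oxygenase, stood at 1.34, 3.58, 3.89 and 3.64 FPKM in controls and rose to 6.16, 8.76, 8.47 and 9.84 FPKM (log2 change 1.22, SE 0.23, adjusted p = 0.00489). Nqo1, a quinone reductase, rose from 1.3 ± 0.453 to 2.82 ± 0.644 FPKM (adjusted p = 0.0106), and Gsr, glutathione reductase, was 19.4 ± 1.73 and 27.9 ± 2.29 FPKM (adjusted p = 0.0251; 0.0552 to 0.0839 without GFP A1, A2 or B2 or Tead4 B1 or B2). Prdx6, a peroxiredoxin, was 404 ± 125 and 249 ± 78 FPKM (adjusted p = 0.0241; 0.0576 to 0.076 without GFP A1, B1 or B2 or Tead4 B1, and 0.185 without a term for cross). Both groups carried dsRNA, and of 12 tested genes of the interferon and dsRNA response only Irf9, a subunit of the interferon-activated factor, was called. It rose from 7.19 ± 1.4 to 14.4 ± 3 FPKM (log2 change 0.91, SE 0.15, adjusted p = 0.00223), and the median of the 12 was 0.34. The other 11 were not called, and log2 changes in the list ran from -0.30 to 0.91. Its summed level was nonetheless higher after Tead4 dsRNA, at 146 to 216 FPKM beside 93 to 139 FPKM in the control libraries. That sum was not tested, so the 2 groups cannot be taken as alike in this response.

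Energy metabolism and protein synthesis changed in few genes. None of 88 cytosolic ribosomal protein genes tested, none of 15 mitochondrially encoded genes and none of 21 genes of mitochondrial maintenance was called, with medians of 0.01, -0.07 and 0.04. Of 84 nuclear genes of oxidative phosphorylation 2 rose and 1 fell, below the shares of all genes. Cox5a, a subunit of cytochrome oxidase, fell from 681 ± 207 to 449 ± 106 FPKM (a log2 change of -0.58, adjusted p = 0.0028; 0.173 without a term for cross). Another subunit, Cox7b, was 23.5 ± 2.4 and 42.6 ± 9.01 FPKM (adjusted p = 0.0216; 0.0507 to 0.0694 without GFP A2 or B1 or Tead4 B1), and Ndufv2 of complex I was 139 ± 9.3 and 186 ± 5.02 FPKM. The Ndufv2 call (adjusted p = 0.0463) was lost with replicates as a block (0.0576), with the median-ratio rescaling (0.0744), with no term for cross (0.1002) and without any 1 of the 8 libraries (0.0581 to 0.124). In glycolysis 1 of 20 genes fell and 1 rose, and in sterol synthesis 1 of 21 each. Pfkfb2, a regulator of phosphofructokinase, fell from 2.26 ± 0.543 to 0.848 ± 0.749 FPKM (adjusted p = 0.0143). Its call was lost without a term for cross (0.0644) and with a pseudocount of 0.1. Insig1, which retains the sterol sensor in the endoplasmic reticulum, rose from 16 ± 3.14 to 27.3 ± 6.91 FPKM (adjusted p = 0.0165; 0.0532 without GFP A1 and 0.0526 without Tead4 B2).

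Among 36 genes of G2 and mitosis 3 fell and 4 rose, with a median of 0.02. Cenpe, a kinetochore motor, fell from 59.9 ± 4.46 to 34.3 ± 2.61 FPKM (log2 change -0.79, SE 0.10, adjusted p = 0.000465). The aurora kinases differed: Aurkc, the form of oocytes and early embryos, rose from 83.3, 70, 66.7 and 56.2 FPKM to 165, 137, 102 and 104 FPKM (log2 change 0.85, SE 0.14, adjusted p = 0.00232), and Aurkb from 33.1 ± 8.01 to 48.6 ± 9.23 FPKM (adjusted p = 0.00631; 0.112 without a term for cross). Aurka was 403 ± 34.4 and 319 ± 19.6 FPKM (a log2 change of -0.33, adjusted p = 0.0215), a call lost without GFP A1, A2 or B2 or Tead4 B2 (0.0516 to 0.0752) and without a term for cross (0.116).

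Few transcripts of earlier stages were called. Of 22 oocyte transcripts tested 1 rose, and of 23 transcripts of the 2-cell stage 1 fell. The median log2 changes were 0.13 for the oocyte list and -0.14 for the 2-cell list, beside 0.05 for all genes. Khdc3, a maternal component of the subcortical complex, was 40.9, 35.4, 50.7 and 54.4 FPKM in controls and 68.3, 55.1, 119 and 98 FPKM after Tead4 dsRNA (log2 change 0.85, SE 0.22, adjusted p = 0.0298). Its call was lost without any 1 of 7 libraries, all but Tead4 A2 (adjusted p 0.057 to 0.0969) and without a term for cross (0.119). Eif1a, a translation initiation factor, fell from 201 ± 15.7 to 139 ± 11.4 FPKM (log2 change -0.53, SE 0.10, adjusted p = 0.00717). Of the markers of cells that could cling to embryos, 2 of 18 cumulus markers and 1 of 14 sperm markers were expressed enough to be tested, and none was called. The summed FPKM of the cumulus list ranged from 11.9 to 23.3 in controls and from 14.6 to 25.5 after Tead4 dsRNA, with 6 genes at 0 in all 8 libraries. The blood list ranged from 15.2 to 30.6 and from 27.5 to 57.2, with 5 genes at 0. That sum came largely from the alpha-globins, of which Hba-a2 was 7.71 ± 3.01 and 14.2 ± 5.08 FPKM (adjusted p = 0.0475) and its near-identical copy Hba-a1 12.4 ± 4.42 and 19.9 ± 8.93 FPKM (adjusted p = 0.191). Reads of these 2 copies could have been split either way, and the Hba-a2 call was lost with both rescalings (0.0718 and 0.0742) and without GFP A1, A2 or B2 or Tead4 A1, A2 or B1 (0.0686 to 0.144) and without a term for cross (0.211).

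Several of the largest falls lay outside all these lists. Akr1b8, an aldo-keto reductase, stood at 27.6, 26.8, 10 and 18.5 FPKM in the GFP libraries and at 4.06, 2.83, 1.18 and 1.24 FPKM after Tead4 dsRNA (log2 change -2.70, SE 0.26, adjusted p = 2.58e-05). Vnn1, a pantetheinase that releases cysteamine, fell from 69.5 ± 11.6 to 12.2 ± 3.88 FPKM (log2 change -2.45, SE 0.23, adjusted p = 2.58e-05). Clic3, of the chloride intracellular channel family, fell from 11 ± 3.4 to 1.06 ± 0.846 FPKM, and Pdzd3, a PDZ scaffold of apical membranes, from 7.58 ± 0.888 to 0.697 ± 0.52 FPKM (log2 changes -2.58 and -2.39). Mpzl2, an adhesion molecule, fell from 7.24 ± 1.51 to 0.759 ± 0.244 FPKM, Dok2, a docking protein of tyrosine kinase signalling, from 6.13 ± 3.27 to 0.513 ± 0.501, and the serpin Serpinb6c from 11 ± 5.32 to 1.67 ± 1.18. In all 7 of these genes every treated library was below every control. Rnu1b1, a copy of the U1 small nuclear RNA and thus hard to place, was listed at 0 in all treated libraries and also in GFP A2, so no fold is given.

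The largest rise was that of Defb19, a beta-defensin gene, which was almost absent from controls. It stood at 0.402, 0, 0.749 and 0.907 FPKM in the GFP libraries and at 3.63, 7.65, 6.6 and 4.28 FPKM after Tead4 dsRNA (log2 change 2.11, SE 0.20, adjusted p = 2.84e-05). Fgf3, a fibroblast growth factor, stood at 2, 2.89, 7.02 and 4.46 FPKM in controls and at 10.4, 9.02, 23.5 and 15.1 FPKM after Tead4 dsRNA, 3.55-fold higher (log2 change 1.62, SE 0.15, adjusted p = 2.58e-05). Rhox9, an X-linked homeobox gene, rose from 10.5 ± 3.61 to 31.3 ± 9.26 FPKM (adjusted p = 0.00146; 0.101 with a pseudocount of 0.1). Isl1, a LIM-homeodomain factor, rose from 1.72 ± 1.82 to 5.12 ± 2.3 FPKM (adjusted p = 0.00415; 0.104 without a term for cross). Rgcc, a regulator of the cell cycle, rose from 2.61 ± 1.61 to 8.84 ± 3.1 FPKM (adjusted p = 0.00597), Zfp771, a zinc finger gene, from 1.72 ± 0.94 to 6.05 ± 0.623 (adjusted p = 0.0055), and Agpat3, a lysophospholipid acyltransferase, from 2.71 ± 0.992 to 7.82 ± 1.49 (adjusted p = 0.00273).

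The response was alike in direction in the 2 crosses. All 700 called genes moved the same way in cross A and in cross B, a count that the pooled call favours, since a gene moving opposite ways would seldom pass. The test of the difference between crosses called no gene (limma), while 797 genes had an unadjusted p under 0.05. With 2 libraries per group and cross, that test has little precision. It called 32 genes when low genes were not filtered and 3 when only the 8 libraries were fitted. The values for cross A and cross B were 0.88 and 1.99 for Ezr and 2.02 and 1.01 for Nupr1, neither of which passed that test. They were closer for others, such as Dab2 at -3.90 and -3.82 and Fgf3 at 1.65 and 1.58.

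**Figure D4:**
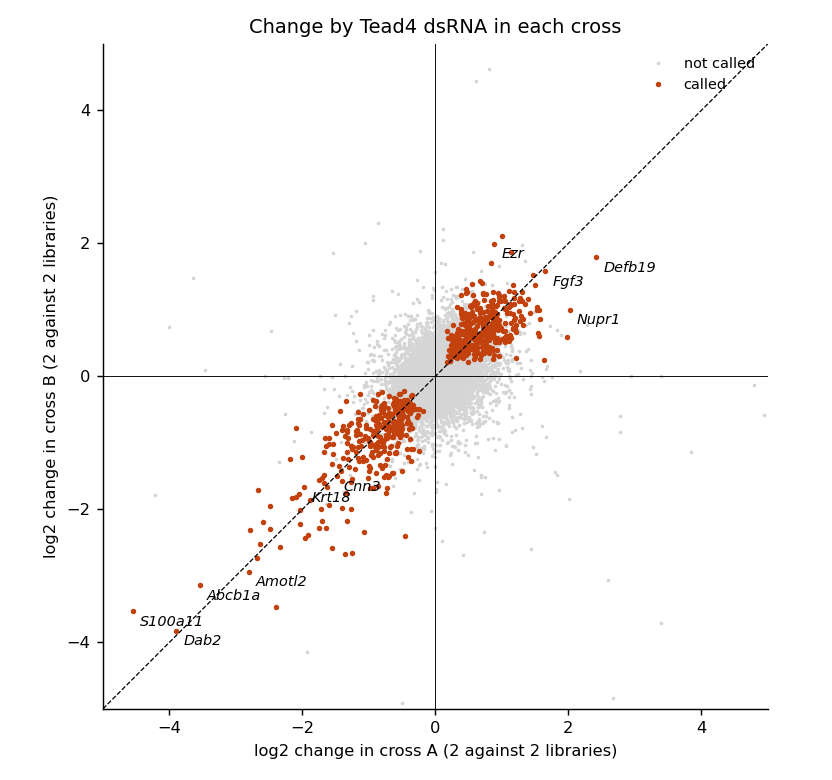
Log2 change after Tead4 dsRNA in cross A (horizontal axis) and in cross B (vertical axis), each from 2 against 2 libraries, with called genes in orange, other genes in grey and equality as a dashed line; 17 genes, none of them called, lie beyond the axes at 5. All called genes lie at the lower left or upper right, and Ezr sits above the line and Nupr1 below it.

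The same Tead4 dsRNA was also injected together with Tfap2c dsRNA, and that set can be read against Tfap2c dsRNA alone, in 8 libraries that the first comparison does not use. With Tfap2c dsRNA alone Tead4 mRNA stood at 19, 25.9, 37.4 and 30.8 FPKM across the 4 libraries, and at 8.17, 5.4, 9.62 and 14.8 FPKM with both. The added Tead4 dsRNA thus left 33.6% of the Tead4 mRNA of its own reference (log2 change -1.52, SE 0.23, adjusted p = 0.0257), beside 15.7% in the first comparison. In this setting 16 genes were called (0.140% of those tested), 12 lower (0.105%) and 4 higher (0.0350%), with 1087 at an unadjusted p under 0.05, and 8 were called with replicates as a block. Leaving out 1 library left between 1 call, without Tfap2c A2 or without the A2 library of the double injection, and 22.

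Of the 16, 9 had been called in the same direction in the first comparison: Amotl2, Tead4, Lrp2, Abcb1a, Cnn3, Slc46a1 and Pnpla2 fell, and Amt and Fam151a rose. Amotl2 had the lowest p here too, at 9.03, 11.5, 15.4 and 21.8 FPKM with Tfap2c dsRNA and 1.99, 1.68, 2.49 and 3.7 FPKM with both (log2 change -2.12, SE 0.15, adjusted p = 4e-06), and it was called in all 24 alternative settings. Abcb1a stood at 44.8, 43.6, 26.4 and 40.8 FPKM and at 19.1, 15.9, 9.81 and 14.3 FPKM (log2 change -1.34, SE 0.18, adjusted p = 0.015). Lrp2 stood at 3.89, 2.89, 1.87 and 1.76 FPKM and at 0.391, 0.294, 0.367 and 0.628 FPKM (log2 change -1.31, SE 0.23, adjusted p = 0.0415), beside -1.18 in the first comparison. Of the other falls, single alternatives often ended the call: it held in 20 of 24 settings for Abcb1a, 16 of 24 for Tead4, 13 of 24 for Slc46a1, 9 of 23 for Lrp2 and 5 of 24 for Cnn3. Lats2 was 5.37 ± 1.42 and 2.44 ± 0.99 FPKM (a log2 change of -0.91, adjusted p = 0.0744) and Dab2 45.4 ± 11.4 and 16.8 ± 8.47 FPKM (a log2 change of -1.47, adjusted p = 0.0743). Ddit3 had like log2 changes in both, 0.78 in the first and 0.81 here (adjusted p = 0.058).

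Taken over all called genes of the first comparison, the second went in the same direction more often than not, and less far. Of the 317 that fell, 256 (80.8%) were lower with both dsRNAs than with Tfap2c dsRNA, while 50.4% of all tested genes were lower. Their median log2 change was -0.86 in the first comparison, which had chosen them, and -0.22 in the second. Of the 383 that rose, 261 (68.1%) were higher, against 49.6% of all tested genes, with medians of 0.67 and 0.10. Choosing genes by the first comparison favours larger medians there. The added dsRNA also left a larger share of Tead4 mRNA in the second, as given above. The parts of these in the smaller second medians cannot be told apart and were not tested.

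**Figure D5:**
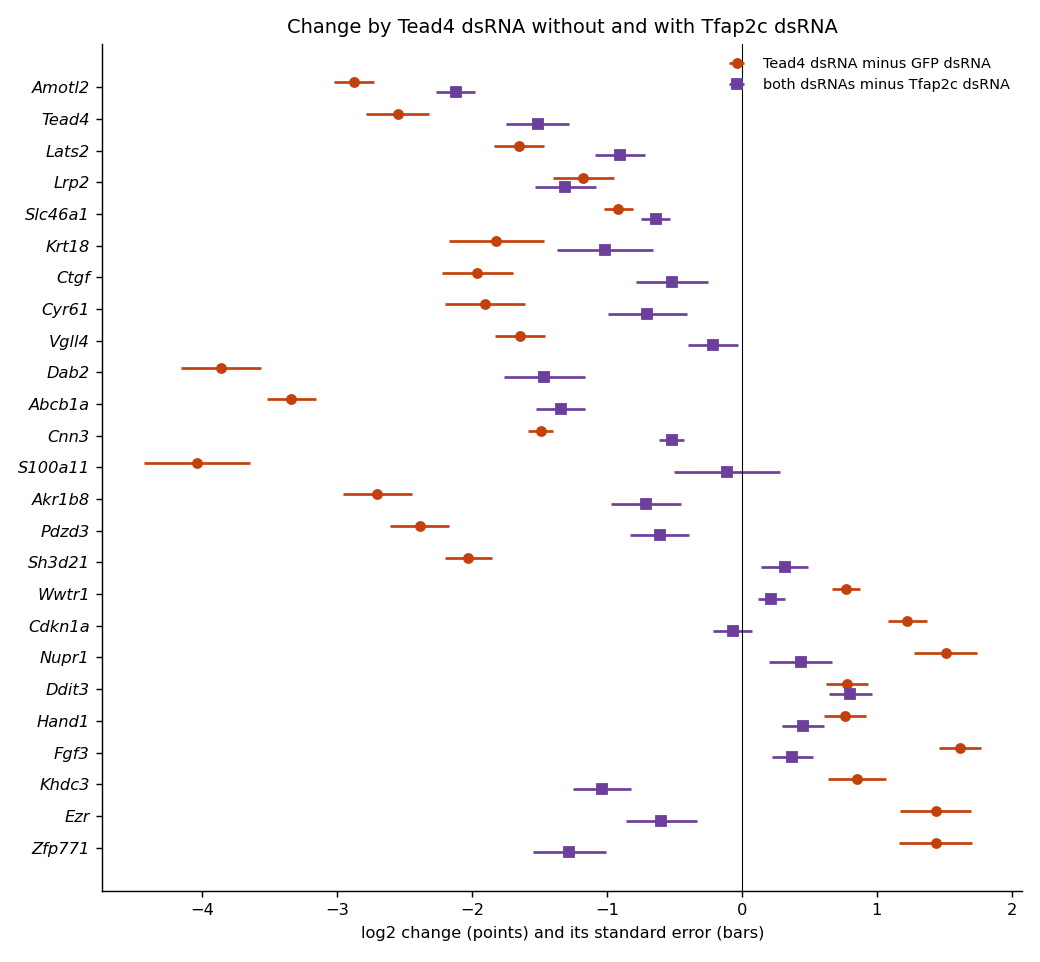
Log2 change (points) and its standard error (bars) on the horizontal axis for 25 genes, after Tead4 dsRNA against GFP dsRNA (orange circles) and after both dsRNAs against Tfap2c dsRNA (purple squares). Amotl2, Lrp2 and Slc46a1 lie left of 0 in both, S100a11 moves from -4.04 to -0.11, and Ezr, Khdc3 and Zfp771 lie right of 0 in the first and left of 0 in the second. The second changes of Ezr, Khdc3 and Zfp771 were not called.

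The difference between the 2 changes was itself tested, and 86 genes passed (0.753%), 44 with a higher (0.385%) and 42 with a lower (0.368%) log2 change when Tfap2c was also depleted. With replicates as a block 36 passed. Of the 86, 75 had been called in the first comparison, and in 72 of these the change was smaller with Tfap2c depleted, a count that the first call favours because both values share its libraries. Leaving out 1 library left from 12 genes, without GFP B2, to 113, without the A2 library of the double injection. Sh3d21, Abcb1a, Cnn3 and Zfp771 passed this test in all 24 alternative settings.

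Sh3d21, an SH3-domain gene, had the lowest p for the difference. It stood at 7.17, 6.62, 9.23 and 8.19 FPKM in the GFP libraries and at 1.09, 0.765, 1.21 and 1.6 FPKM with Tead4 dsRNA, but was already at 0.18, 0.083, 0.82 and 0.618 FPKM with Tfap2c dsRNA alone and at 0.775, 0.381, 0.417 and 1.6 FPKM with both. The difference was 2.34 on the log2 scale (adjusted p = 0.00112). S100a11 had the same form: 144 ± 90.6 FPKM with GFP, 10.3 ± 10.4 with Tead4, 19.7 ± 7.15 with Tfap2c and 26.3 ± 29.1 FPKM with both dsRNAs (difference 3.93, adjusted p = 0.00851; 0.229 without a term for cross). Each single injection left both genes low, and the second dsRNA added no further fall that passed. Sh3d21 was under 1 FPKM in every library with Tfap2c dsRNA alone, so on the log2(FPKM + 1) scale little further fall was possible. Its difference therefore largely repeats its first change with the sign reversed. Ap2a2 (17.6 ± 3.33, 5.29 ± 1.57, 5.42 ± 0.443 and 3.9 ± 1.48 FPKM in that order), Pdzd3 (7.58 ± 0.888, 0.697 ± 0.52, 1.96 ± 0.26 and 1.11 ± 0.941) and Vgll4 (21.2 ± 8.3, 6.31 ± 3.23, 8.41 ± 5.13 and 7.17 ± 4.53) were of this kind too, with differences of 1.14, 1.78 and 1.43 (adjusted p 0.038, 0.0262 and 0.0279). These 3 calls held in 10, 14 and 12 of 24 settings, and for Vgll4 the adjusted p was 0.663 without a term for cross.

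A second kind had a higher mean with Tfap2c dsRNA alone than with GFP dsRNA, a step described here by its means only. Cnn3 stood at 274 ± 35.3 FPKM with Tfap2c dsRNA, above the 149 ± 18.8 of the GFP controls, and at 190 ± 15.2 FPKM with both, where Tead4 dsRNA alone had left 51.9 ± 0.958 (difference 0.97, adjusted p = 0.00851). Abcb1a went from 38.9 ± 8.49 to 14.8 ± 3.87 FPKM, so the level with both dsRNAs was near the GFP level of 19.3 ± 4.04 and well above the 1.01 ± 0.466 of Tead4 dsRNA alone (difference 2.00, adjusted p = 0.00848). Akr1b8 behaved alike, at 58.3 ± 28.3 and 32.3 ± 2.73 FPKM (difference 1.99, adjusted p = 0.0279, held in 15 of 24 settings). Ctgf was 10.8 ± 1.26 FPKM with Tfap2c dsRNA and 7.41 ± 2.14 with both, levels above its GFP mean of 3.71 ± 1.7, but its difference of 1.44 did not pass (adjusted p = 0.1).

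Among the rises, Zfp771 had changes of opposite sign: it was 1.72 ± 0.94 FPKM with GFP and 6.05 ± 0.623 with Tead4 dsRNA, but 4.73 ± 0.994 with Tfap2c dsRNA and 1.55 ± 1.29 FPKM with both (difference -2.71, adjusted p = 0.00851). The second change, a fall, was not itself called for Zfp771 (limma, adjusted p = 0.082) or for Ezr (0.497). Ezr was 7.9 ± 0.61 FPKM with Tfap2c dsRNA and 5.41 ± 3.32 with both, where it had gone from 2.86 ± 0.848 with GFP to 9.8 ± 3.89 with Tead4 dsRNA alone (difference -2.04, adjusted p = 0.0279, held in 13 of 24 settings). Cdkn1a was already at 376 ± 168 FPKM with Tfap2c dsRNA and stood at 367 ± 182 with both (difference -1.29, adjusted p = 0.0192; 0.739 without a term for cross). Defb19 was listed at 0 in all 8 libraries with Tfap2c dsRNA, so the rise seen with Tead4 dsRNA alone had no counterpart there. Its difference is that rise with the sign reversed.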

How the data were processed

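Polyadenylated RNA of 16 libraries was measured, and the authors deposited FPKM per gene. CASAVA, Trim Galore, STAR, Cufflinks and mm10 are named in the submitters' processing notes; their versions and the annotation are not stated in those notes. Lines with a repeated identifier (59 of 43496) were summed, and 27 gene names that a spreadsheet had turned into dates were restored. Read totals are not in hand, so absolute depth is unknown.

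Values were transformed to log2(FPKM + 1) and fitted over all 16 libraries with limma 3.58.1 in R 4.3.3 (eBayes with trend; terms for group and cross), two-sided, with Benjamini-Hochberg adjustment over the 11422 genes. The fit was tested on simulated data. Gene lists are described by counts and medians. Named genes are the TEAD, YAP and lineage genes looked up throughout, the 15 largest rises and falls with at least 5 FPKM in 1 group, and up to 6 genes per list by lowest p; Dppa3, Diap2 and Ect2 were added after their values were seen. Genes and lists were chosen with earlier results of these data known. Same-named libraries deviated together from their group means (r = 0.219, 0.176, 0.194 and 0.129 for A1, A2, B1 and B2), but so did libraries of the same cross with the other number (0.165 to 0.307). With cross removed, r was -0.0401 in A and -0.0989 in B. Replicate label as a block was an alternative. Promoter windows are from RefSeq on GRCm38.p6.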

Additional observations from a re-analysis of the deposited data

Results flagged for a closer look

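Among 222 sets of 4 library values examined, 15 held a library far from the other 3, and chance gives about 1 such set in 20. With Tead4 dsRNA, library B2 was the highest of its group for Ctgf (0.464 FPKM), Cyr61 (4.94 FPKM), Dab2 (10.2 FPKM), Prdx6 (365 FPKM) and Insig1 (37.6 FPKM), and the lowest for Ajuba (2.07 FPKM). The same library held the most Tead4 mRNA, 11 FPKM, and the part of that in these values was not tested. Library B1 with Tead4 dsRNA was the highest for Nqo1 (3.78 FPKM) and Cox7b (56.1 FPKM). Among the GFP libraries, A2 was the lowest for Pou5f1 (30.0221 FPKM) and the highest for Sesn1 (7.78 FPKM) and for the mitochondrially encoded share (12.1%). GFP A1 was the lowest for Hmox1 (1.34 FPKM). GFP B1 was the highest for Mogat2 (3.11 FPKM), Isl1 (4.44 FPKM) and the number of genes at 1 FPKM (10504).

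For 21 named genes the log2 change after Tead4 dsRNA differed, by the limma test of the difference, between embryos with and without Tfap2c dsRNA. Values are the log2 change with Tfap2c depleted minus that without. Among genes that fell with Tead4 dsRNA alone the difference was 3.93 for S100a11, 2.40 for Dab2, 2.34 for Sh3d21, 2.00 for Abcb1a, 1.99 for Akr1b8, 1.78 for Pdzd3, 1.69 for Mpzl2 and 1.66 for Clic3. It was 1.59 for Vnn1, 1.43 for Vgll4, 1.14 for Ap2a2, 0.98 for Marveld2, 0.97 for Cnn3 and 0.84 for Lin28a. Among genes that rose it was -2.71 for Zfp771, -2.11 for Defb19, -2.04 for Ezr, -1.89 for Khdc3, -1.47 for Agpat3, -1.29 for Cdkn1a and -1.24 for Fgf3. Most of these genes were named because of their change with Tead4 dsRNA alone, which enters the difference. Under 24 alternative settings (23 for Defb19, Lin28a and Marveld2) the call held in all for Abcb1a, Sh3d21, Cnn3 and Zfp771, in 23 for S100a11 and in 22 for Defb19, Khdc3 and Cdkn1a. It held in 15 for Akr1b8, 14 for Dab2, Pdzd3 and Fgf3, 13 for Ezr, 12 for Vgll4 and 10 for Ap2a2. It held in fewer than 10 for Mpzl2 (8), Clic3 (7), Lin28a and Marveld2 (6 each), Vnn1 (5) and Agpat3 (3).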

How the results depend on the processing

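No called change of a named gene changed sign under any alternative run. The signs of changes that were not called did vary, as for Krt8 (log2 change -0.05 to 0.49), Pou5f1 (-0.04 to 0.12), Yap1 (-0.07 to 0.18) and Tfap2c (-0.12 to 0.07). The excess of higher over lower calls (383 and 317) turned to 262 and 414 with median-ratio rescaling and 288 and 396 with quantile normalization. In all, 51 of 92 called genes named in the text kept their call in every alternative to the Tead4 comparison that fitted the gene, of 17 run. Of all genes named by rule, 39 lost their call without the cross term and 22 with no filter on low values. Cebpg, Plk2, Prdx6, Cox7b, Ndufv2, Khdc3 and Hba-a2 were among those lost with no filter. The calls of Hba-a2, Ndufv2 and Aurka were lost without the variance trend, and those of Hba-a2 and Prdx6 with only the 8 libraries. A pseudocount of 0.1 also ended that of Hba-a2. Leaving out 1 library gave 407 to 594 called genes in the Tead4 comparison (192 to 326 higher, 215 to 268 lower). Dropping the cross term gave 279 (112 higher, 167 lower). With replicates as a block 603 genes were called. With Tfap2c depleted, the 16 calls became 4 with a pseudocount of 0.1 (0 higher, 4 lower), 4 with no filter (1 and 3), 3 without the cross term (1 and 2), 8 with the replicate block (1 and 7) and 10 without the variance trend (1 higher), and 2 were higher with a filter at 5 FPKM. Leaving out 1 library gave 1 to 22 (0 to 5 higher, 1 to 17 lower). The 86 calls for the difference became 14 with no filter (7 and 7), 7 without the cross term (4 and 3) and 36 with the replicate block (22 and 14). Lower calls numbered 23 with median-ratio rescaling and 20 with quantile normalization, and leaving out 1 library gave 12 to 113 in all (6 to 49 higher, 5 to 64 lower). The cross difference called 32 with no filter, 3 with only the 8 libraries, and 0 to 1 with 1 library left out. Tead4 mRNA stayed between 13.4% and 17.2% of control with 1 library left out. The cause of these shifts was not tested. The alternatives without Tfap2c or double-injection libraries in turn, one at a time, were chosen after seeing the data.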
